A study of Mus musculus with 9 samples.

Results

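The 10 genes described here encode enzymes that desaturate and lengthen fatty acids: the desaturase family members *Fads1*, *Fads2* and *Fads3*, the elongases *Elovl1*, *Elovl5*, *Elovl6* and *Elovl7*, and the enzymes that complete each elongation cycle, *Hsd17b12*, *Hacd3* and *Tecr*. They were taken by symbol from a table of 54432 genes, all 10 were found, and 8 of them were among the 12637 genes that passed the filter on low counts. RNAseq was performed on RAW 264.7 cells, a transformed mouse macrophage-like line, in 3 groups of 3 libraries. Control cells (CTRL) were left untreated, and the other groups received 1 mM VLDL-sized (VLDLsep) or 1 mM chylomicron-sized, CHYL-sized, emulsion particles (CHYLsep) for 6 hours. The particles were made of sunflower oil with caseinate as emulsifier and all groups shared the same medium with fetal bovine serum. A library stands for a pool made within 1 experiment from a single cell line, and p-values measure a change against the spread between such pools. Summed estimated counts ranged from 22617191 to 22856792 in control libraries, from 22393893 to 22815932 in VLDL-sized libraries and from 22482786 to 22703800 in CHYL-sized libraries.

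Mammalian cells cannot make linoleic and alpha-linolenic acid, but they convert these dietary acids to longer and more unsaturated ones in the endoplasmic reticulum. FADS2 inserts the first double bond (delta-6 desaturase), ELOVL5 lengthens the product, and FADS1 inserts a further double bond (delta-5 desaturase), which yields arachidonic and eicosapentaenoic acid. Each round of elongation needs an elongase for the condensation, a ketoacyl reductase (HSD17B12), a hydroxyacyl dehydratase (the HACD family) and an enoyl reductase (TECR). In macrophages these polyunsaturated acids are built into membrane phospholipids and are the precursors of prostaglandins and leukotrienes. *Fads1*, *Fads2* and *Elovl5* are known as targets of the sterol regulatory element-binding proteins (SREBPs), and sunflower oil is known for its high content of linoleic acid.

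The cells carried the markers of their label. All 10 macrophage markers examined were above 0 in every library, and the most abundant of them, *Lyz2* (lysozyme), lay between 2176 and 2493 counts-per-million (cpm). Of 8 markers of other cell types, 5 had no count in any library, among them *Alb*, *Epcam*, *Adipoq* and *Krt5*, *Cd3e* did not exceed 0.045 cpm, and none of the 8 exceeded 0.772 cpm. The summed level of the macrophage markers was 7322, 7397.5 and 7375 cpm in control libraries, 6779, 6768 and 6564 cpm with VLDL-sized particles and 6783, 6981 and 6756 cpm with CHYL-sized particles, so that it was lower in every treated library. With VLDL-sized particles 6 of the 10 markers fell and 1 rose, and with CHYL-sized particles 3 fell. The markers that fell most were *Fcgr1*, a high-affinity Fc receptor (log2 fold change -0.83 with VLDL-sized and -0.68 with CHYL-sized particles), *Cd14*, a lipopolysaccharide co-receptor (-0.54 and -0.47), *Ptprc*, which encodes the leukocyte antigen CD45 (-0.31 and -0.23), and *Spi1*, the gene of the factor PU.1, had -0.25 with VLDL-sized particles (adjusted p = 0.0166 by limma) and -0.15 with CHYL-sized particles (adjusted p = 0.157). The call of *Spi1* was lost without control replicate 1 (adjusted p = 0.0628) or 3 (0.0505) or VLDL-sized replicate 2 (0.0572) or 3 (0.0528), and the CHYL-sized call of *Ptprc* without CHYL-sized replicate 2 (0.0646), and the CHYL-sized value of *Spi1* passed with library size alone (0.034). Without the libraries numbered 3, described next, the values were -0.92 and -0.76 for *Fcgr1*, -0.54 and -0.47 for *Cd14*, -0.25 and -0.18 for *Ptprc* and -0.18 and -0.083 for *Spi1*. The part of this shift in the results below was not tested. In bulk RNA of this single line, fewer cells that express a marker and less of its RNA per cell cannot be told apart.

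The libraries numbered 3 stood apart from the other libraries in all 3 groups. On the second principal component of the log2 cpm values they lay at -22.9, -17.7 and -20.7, and the other 6 libraries between 6.10 and 16.1. Differences in counts between replicates 1 and 2 of a group gave a chi-square per degree of freedom of 3.38 to 5.02, and pairs that included replicate 3 gave 11.9 to 15.1. Fold changes against control of the genes named below, except *Hacd4* and *Acsl1*, are therefore also given without the libraries numbered 3. This leaves 2 libraries per group. No replicate pair agreed within sampling noise.

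Promoters of 2 genes are shown, written 5′ to 3′ on the gene's strand, because they belong to the members that moved in opposite directions and for which sequence ahead of the annotated exons was at hand: *Elovl5* (chr9:77917115-77917363, plus strand, 249 bases), which fell, and *Hsd17b12* (chr2:94157965-94158159, minus strand, 195 bases), which rose. Both come from RefSeq on GRCm38.p6, and the capitals mark matches to the motifs named below.
Elovl5: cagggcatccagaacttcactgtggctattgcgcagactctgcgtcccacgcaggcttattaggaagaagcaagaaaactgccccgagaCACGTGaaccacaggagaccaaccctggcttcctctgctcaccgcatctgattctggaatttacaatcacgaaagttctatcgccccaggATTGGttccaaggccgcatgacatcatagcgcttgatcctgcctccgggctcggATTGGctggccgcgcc
Hsd17b12: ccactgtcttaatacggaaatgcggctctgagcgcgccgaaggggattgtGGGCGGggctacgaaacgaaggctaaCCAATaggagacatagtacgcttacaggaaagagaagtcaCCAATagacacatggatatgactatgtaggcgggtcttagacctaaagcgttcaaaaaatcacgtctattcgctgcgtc
The capitals in *Elovl5* are an E-box (CACGTG) and 2 NF-Y boxes (CCAAT, here on the opposite strand as ATTGG), and those in *Hsd17b12* are a GC box (GGGCGG) and 2 NF-Y boxes. No match overlapped another in either sequence.

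The same search covered both strands of the 250 bases ahead of the start in 10 windows of 9 members, *Elovl1* having 2 windows. *Fads1* had no entry. Start sites differ between RefSeq and GENCODE, so that 243 of the 250 bases of the *Fads2* window, 129 of the *Elovl6* window and 55 of the *Hsd17b12* window lie in exons annotated by GENCODE rather than ahead of them, and these windows are counted as they are. The sterol regulatory element was searched as TCACNCCAC and was found in 0 of the 10 windows, beside 1.05% of all 32851 windows in the table. The NF-Y box was in 6 of the 10 (33.8% of all windows), the GC box in 8 (32.7%), the E-box in 2, those of *Elovl5* and *Hacd3* (6.02%), and the antioxidant response element, TGACNNNGC, in 2, those of *Tecr* and *Fads3* (10.2%). The direct repeat spaced by 4 (DR4) was in none of the 10 (0.0152%). These matches describe letters in short windows and not bound sites.

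The desaturases *Fads1* and *Fads2* and the elongase *Elovl5* fell with both kinds of particle to about 65% to 72% of the control level, and *Hsd17b12*, the ketoacyl reductase, rose to 119% and 117%. These were the 4 members called, the same 4 with either particle, out of 8 tested. *Elovl1*, *Hacd3*, *Tecr* and *Fads3* did not pass the test, and *Elovl6* and *Elovl7* had no counts. Among all 12637 genes tested, 35.6% were called with VLDL-sized particles (17.9% lower and 17.8% higher) and 25.7% with CHYL-sized particles (13% lower and 12.7% higher), at an adjusted p under 0.05. The 3 members called lower of 8 stand beside those shares, and the single member called higher is near its background. The median log2 fold change of the 8 tested members was -0.23 with VLDL-sized and -0.20 with CHYL-sized particles, and that of all genes tested was -0.00028 and 0.0013. The direction of calls over the whole table depended on scaling: 2244 genes were higher and 2256 lower with VLDL-sized particles after TMM normalization, but 1507 higher and 3312 lower when only library size was used, and with CHYL-sized particles the split went from 1610 higher and 1639 lower to 1068 and 2514.

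**Figure D1:**
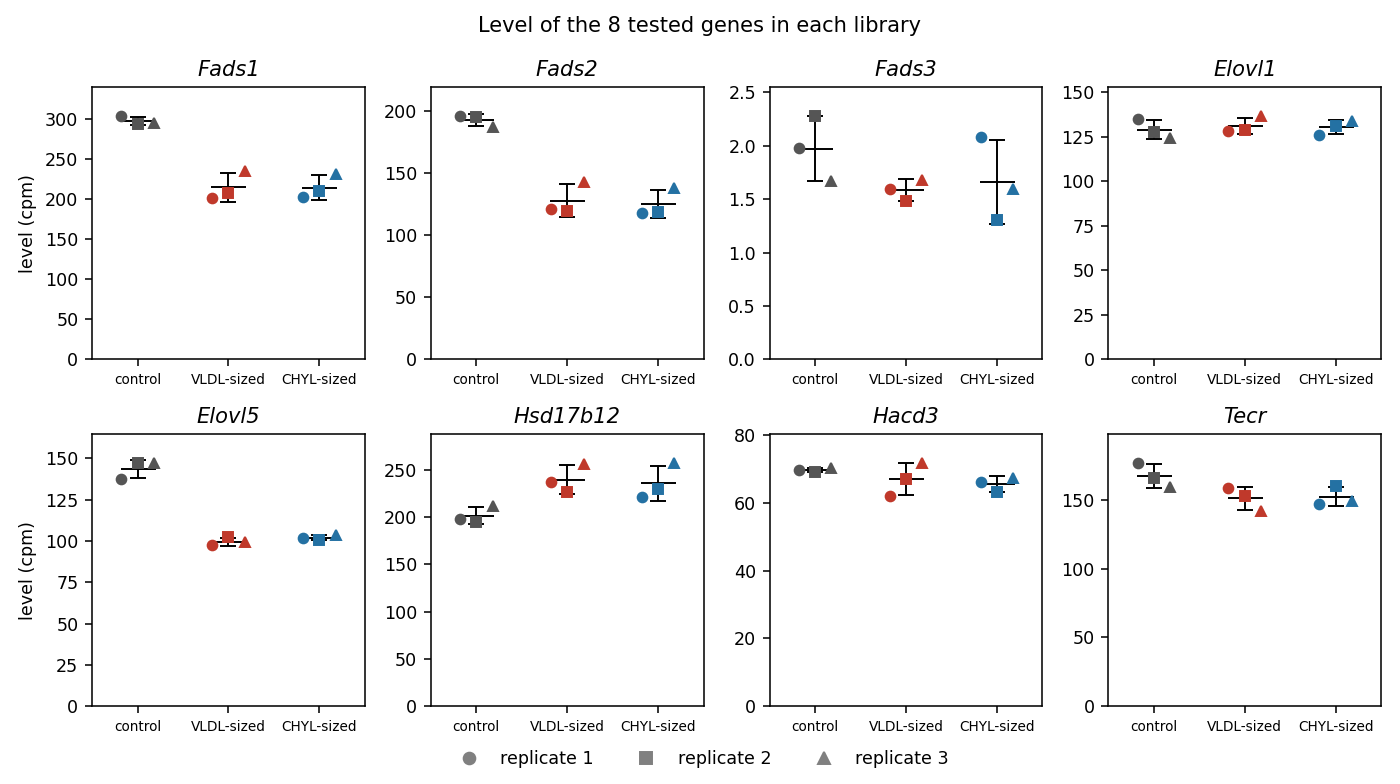
Level in cpm (vertical axes, from 0) of the 8 tested members in each of the 9 libraries, by group; symbols mark the replicate number, the bars the mean and the SD of 3 libraries. The control libraries of *Fads1*, *Fads2* and *Elovl5* all sit above the treated libraries, and those of *Hsd17b12* all sit below them.

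*Fads1* (ENSMUSG00000010663, chromosome 19, 10182888 to 10196877, plus strand, GRCm38) encodes the delta-5 desaturase. Its level was 303, 293 and 295 cpm in the control libraries, 201, 207 and 235 cpm with VLDL-sized particles and 202, 209 and 231 cpm with CHYL-sized particles. Every treated library was below every control library, and replicate 3 was the highest in both treated groups. The mean fell from 297 ± 4.95 cpm (SD, n = 3) to 214 ± 18.3 cpm and 214 ± 15.1 cpm. The log2 fold change was -0.47 (SE 0.068) with VLDL-sized particles, with an adjusted p of 0.00036 by limma, and -0.47 (SE 0.068) with CHYL-sized particles, with an adjusted p of 0.000599. Without the libraries numbered 3 these values were -0.55 and -0.54.

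*Fads2* (ENSMUSG00000024665, chromosome 19, 10062765 to 10101746, minus strand) encodes the delta-6 desaturase, the first enzyme of the route, and lies between *Fads3* and *Fads1*. Control libraries held 195, 195 and 187 cpm, VLDL-sized libraries 121, 119 and 143 cpm and CHYL-sized libraries 118, 119 and 138 cpm. The treated libraries all lay below the control libraries, and replicate 3 was again the highest of each treated group. The mean of 192 ± 4.62 cpm (SD, n = 3) fell to 127 ± 13.3 cpm and 125 ± 11.3 cpm, which is 66.2% and 64.9% of control. On the log2 scale the fold changes were -0.60 (SE 0.080, adjusted p = 0.00022 by limma) and -0.63 (SE 0.080, adjusted p = 0.000271), and -0.70 and -0.72 without the libraries numbered 3. *Fads2* fell further than 92.2% and 95.2% of all genes tested.

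*Fads3* (ENSMUSG00000024664, chromosome 19, 10041569 to 10060110, plus strand) is the least characterised gene of the cluster and has been described as acting on sphingoid bases. It was near the lower end of detection, with 29 to 54 counts per library. The levels were 1.98, 2.28 and 1.67 cpm in control, 1.60, 1.48 and 1.68 cpm with VLDL-sized and 2.08, 1.31 and 1.60 cpm with CHYL-sized particles, and the groups overlapped. The log2 fold changes of -0.30 (95% interval -0.77 to 0.16) and -0.26 (-0.72 to 0.20) had adjusted p-values of 0.3 and 0.405 by limma. These intervals include 0 as well as values as low as those of *Fads1* and *Fads2*. Without the libraries numbered 3 the values were -0.46 (adjusted p = 0.194) and -0.355 (adjusted p = 0.335). With single libraries left out they ranged from -0.413 to -0.195 with VLDL-sized and from -0.439 to -0.101 with CHYL-sized particles. *Fads2* and *Fads3* had 24 sequences of 31 bases in common, 0.729% of those of *Fads2*.

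*Elovl5* (ENSMUSG00000032349, chromosome 9, 77917364 to 77984519, plus strand), the elongase of polyunsaturated acids whose promoter is printed above, had a narrower spread in the treated groups than *Fads1* and *Fads2*. It was at 138, 147 and 147 cpm in control libraries, at 97.5, 102 and 99.1 cpm with VLDL-sized particles and at 101, 101 and 104 cpm with CHYL-sized particles. All 6 treated libraries lay well below the control libraries and close to one another. The mean of 144 ± 5.46 cpm (SD, n = 3) fell to 99.6 ± 2.40 cpm and 102 ± 1.53 cpm. The log2 fold changes were -0.53 (SE 0.046, adjusted p = 1.39e-05 by limma) and -0.50 (SE 0.046, adjusted p = 3.59e-05), and -0.51 and -0.49 without the libraries numbered 3.

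*Elovl1* (ENSMUSG00000006390, chromosome 4, 118428093 to 118432953, plus strand) encodes an elongase of saturated and monounsaturated very-long-chain acyl groups. Its levels were 135, 128 and 124 cpm in control, 128, 129 and 136 cpm with VLDL-sized and 126, 131 and 134 cpm with CHYL-sized particles, and the groups overlapped throughout. Its log2 fold changes were 0.026 (95% interval -0.086 to 0.14, adjusted p = 0.733 by limma) and 0.016 (-0.096 to 0.13, adjusted p = 0.858), so that neither interval reached the fold change of *Elovl5*. The sign was negative when only library size was used (-0.068 and -0.064) and without the libraries numbered 3 (-0.029 and -0.030). Of its exon bases, 1.94% overlap *Cdc20* on the opposite strand.

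*Elovl6* (ENSMUSG00000041220, chromosome 3, 129532355 to 129638495, plus strand), known for lengthening saturated acids made by de novo synthesis, and *Elovl7* (ENSMUSG00000021696, chromosome 13, 108214404 to 108285683, plus strand) were listed at 0 counts in all 9 libraries. A count of 0 allows up to 3 counts, which corresponds to 0.126 to 0.137 cpm depending on the library and covers counting error only. Of the sequences of 31 bases of *Elovl6*, 6.41% occur in other genes, most of them in *Gm11295*, which was also at 0 counts in every library. No fold change was computed for these genes.

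*Hsd17b12* (ENSMUSG00000027195, chromosome 2, 94032689 to 94157964, minus strand) encodes the ketoacyl reductase of the elongation cycle. It was at 199, 195 and 212 cpm in control libraries, at 237, 226 and 256 cpm with VLDL-sized particles and at 221, 229.6 and 257 cpm with CHYL-sized particles. Every treated library was above every control library, and replicate 3 was the highest of its group in all 3 groups. The mean rose from 202 ± 8.86 cpm (SD, n = 3) to 240 ± 15.1 cpm and 236 ± 18.9 cpm. The log2 fold changes were 0.25 (SE 0.068, adjusted p = 0.016 by limma) and 0.22 (SE 0.068, adjusted p = 0.0348). Without the libraries numbered 3 they were 0.23 (adjusted p = 0.000996) and 0.19 (adjusted p = 0.00507). The call depended on scaling and on single libraries. With library size alone the values were 0.15 and 0.14 (adjusted p = 0.0602 and 0.0965 by limma). The VLDL-sized call was lost without control replicate 1 (adjusted p = 0.0554), control replicate 2 (0.0607) or VLDL-sized replicate 3 (0.0533), and the CHYL-sized call without control replicate 1 (0.104), control replicate 2 (0.114), CHYL-sized replicate 2 (0.0619) or CHYL-sized replicate 3 (0.117).

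*Hacd3* (ENSMUSG00000033629, chromosome 9, 64986983 to 65021693, minus strand), a hydroxyacyl dehydratase, was at 69.6, 69.1 and 70.2 cpm in control libraries, at 62.2, 67.1 and 71.7 cpm with VLDL-sized and at 66.3, 63.1 and 67.4 cpm with CHYL-sized particles. The VLDL-sized libraries spread around the control level, whereas the CHYL-sized libraries were all below it. The log2 fold changes of -0.059 (95% interval -0.19 to 0.070) and -0.087 (-0.22 to 0.042) did not pass the test (adjusted p = 0.475 and 0.313 by limma). In replicates 1 and 2 alone they were -0.10 and -0.10. With single libraries left out they ranged from -0.109 to -0.00586 with VLDL-sized and from -0.107 to -0.0592 with CHYL-sized particles. With library size alone the CHYL-sized value was -0.17 with an adjusted p of 0.0458.

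*Tecr* (ENSMUSG00000031708, chromosome 8, 83571698 to 83607971, minus strand) encodes the enoyl reductase of the last step of the cycle. Its levels were 177, 166 and 159.6 cpm in control, 158.5, 153 and 142 cpm with VLDL-sized and 147, 160.0 and 149 cpm with CHYL-sized particles. The VLDL-sized libraries lay below the control libraries by a small margin, and 1 CHYL-sized library lay within the control range. The log2 fold changes of -0.15 (SE 0.060) and -0.14 (SE 0.060) did not pass the test (adjusted p = 0.0771 and 0.121 by limma). They passed with a batch term for the libraries numbered 3 (adjusted p = 0.011 and 0.0199), and with library size alone (-0.24 and -0.22, adjusted p = 0.0149 and 0.0312). Without the libraries numbered 3 the values were -0.14 (adjusted p = 0.0531) and -0.16 (adjusted p = 0.0356), and without control replicate 3 the VLDL-sized value was -0.18 (adjusted p = 0.0498). Sequences of 31 bases that occur in other genes made up 10.2% of those of *Tecr*, most of them in *AC159187.1*, which had 0 counts in all libraries.

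**Figure D2:**
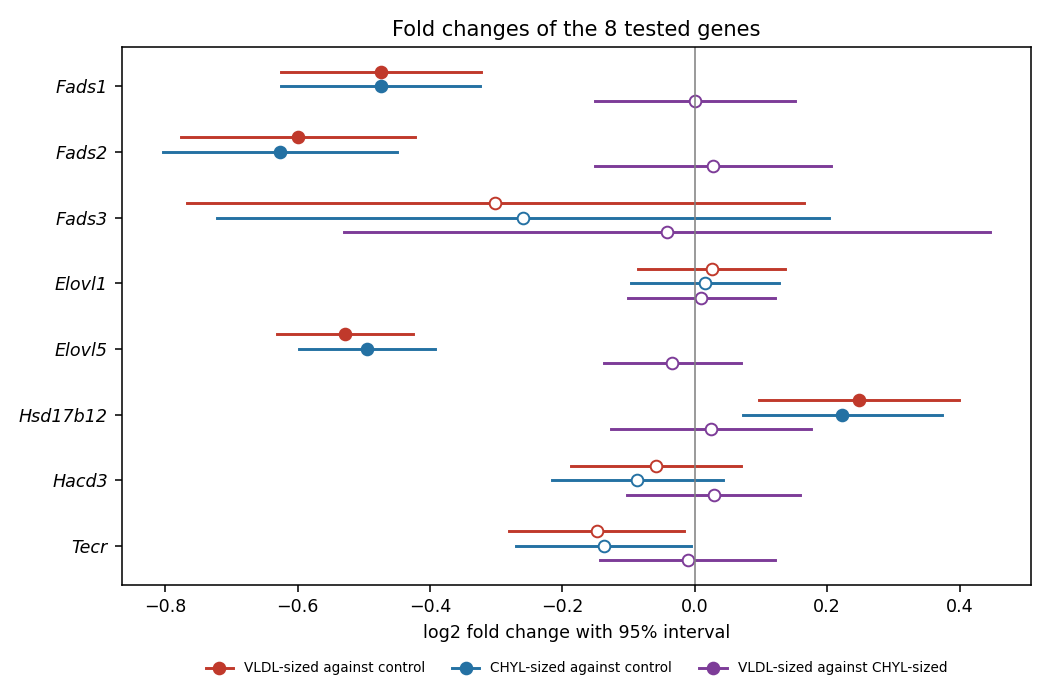
Log2 fold change (horizontal axis) of the 8 tested members in the 3 comparisons, with the 95% interval as a line; filled points have an adjusted p under 0.05 by limma. *Fads1*, *Fads2* and *Elovl5* lie between -0.63 and -0.47 against control, *Hsd17b12* at 0.25 and 0.22, and all intervals between the particles include 0.

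VLDL-sized and CHYL-sized particles, which consist of the same oil and emulsifier, were compared directly in the same model. The sample labels and the methods give the same dose and time for both, whereas a legend in the supplement gives a lower dose for the CHYL-sized particles, so a difference in dose cannot be told apart from a difference in size if that legend holds. None of the 8 members was called, none had an unadjusted p under 0.05 by limma, and edgeR and DESeq2 also called 0 of the 8. Over the whole table limma called 0 genes (0%), with 813 at an unadjusted p under 0.05, edgeR called 0 and DESeq2 24. The log2 difference, VLDL-sized minus CHYL-sized, was 0.00041 for *Fads1* (95% interval -0.15 to 0.15), 0.027 for *Fads2* (-0.15 to 0.21) and -0.034 for *Elovl5* (-0.14 to 0.070). It was 0.025 for *Hsd17b12* (-0.13 to 0.18), 0.010 for *Elovl1* (-0.10 to 0.12), 0.028 for *Hacd3* (-0.10 to 0.16) and -0.011 for *Tecr* (-0.14 to 0.12). For these 7 genes a difference between the particles beyond about 0.21 in either direction lies outside the interval, whereas the interval of *Fads3* went from -0.53 to 0.45. Both comparisons with control share the same 3 control libraries.

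Levels were compared between genes as cpm per kb of exon length. In control cells *Hsd17b12* was highest at 83.8 ± 3.68 cpm per kb (SD, n = 3), followed by *Tecr* at 76.4 ± 3.91, *Fads1* at 61.7 ± 1.03, *Fads2* at 58.4 ± 1.40, *Elovl1* at 47.3 ± 1.99, *Elovl5* at 40.8 ± 1.55 and *Hacd3* at 25.7 ± 0.206 cpm per kb. *Fads3* was far below them at 0.521 ± 0.0796 cpm per kb. No neighbours in this order overlapped in the control libraries. With VLDL-sized particles *Elovl1*, at 48.1 ± 1.65 cpm per kb, stood ahead of *Fads1* at 44.5 ± 3.80 and *Fads2* at 38.7 ± 4.03, and each of these overlapped its neighbour. With CHYL-sized particles the order was the same, with *Elovl1* at 47.8 ± 1.44 and *Fads1* at 44.5 ± 3.13 cpm per kb overlapping, and *Fads2* at 37.9 ± 3.43 below them without overlap. The exon length counts all annotated transcripts of a gene, and which of them the cells used was not analysed here.

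**Figure D3:**
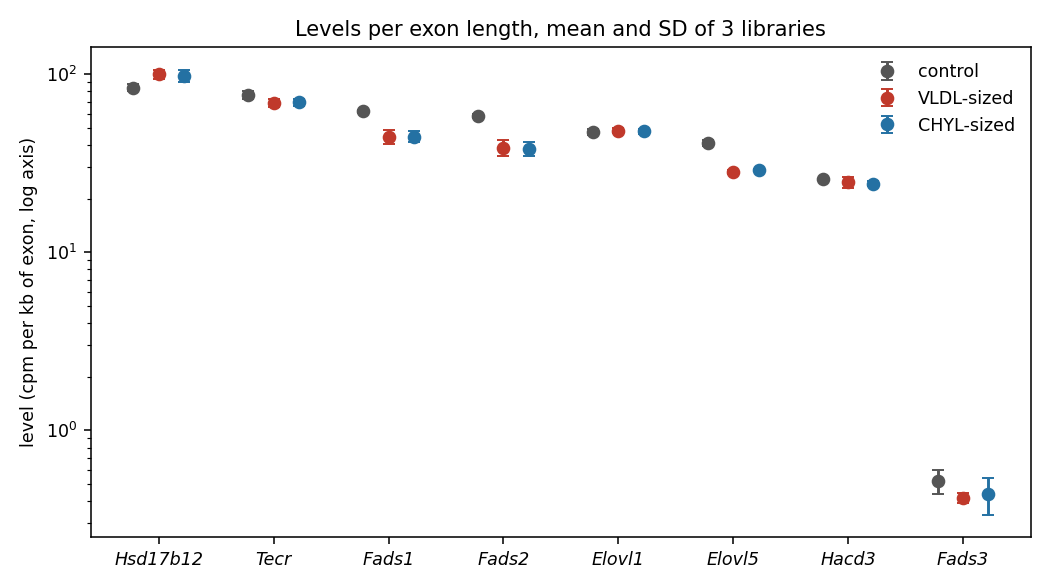
Level in cpm per kb of exon (vertical log axis) of the 8 tested members by group, mean and SD of 3 libraries. *Hsd17b12* and *Tecr* are the highest in every group, *Fads3* lies below 1 cpm per kb, and *Elovl1* stands above *Fads1* in the treated groups only.

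A further 8 genes of elongation and desaturation were examined, of which 6 were tested. With VLDL-sized particles 1 of the 6 rose and none fell, and with CHYL-sized particles limma called 0 of 6, with 1 at an unadjusted p under 0.05, and edgeR and DESeq2 called 0. That 1 gene was *Hacd4*, of the HACD family, which was lower (-0.37, unadjusted p = 0.0442, adjusted p = 0.124 by limma). With VLDL-sized particles *Hacd4* had -0.32 (adjusted p = 0.15 by limma). The gene that rose was *Elovl3*, an elongase known from skin and brown fat, at 1.01, 1.01 and 1.54 cpm in control, 2.46, 1.48 and 3.19 cpm with VLDL-sized and 1.73, 1.62 and 1.69 cpm with CHYL-sized particles. It was lowly expressed, and 1 VLDL-sized library lay within the control range. Its log2 fold change was 0.95 (SE 0.30, adjusted p = 0.0298 by limma) with VLDL-sized and 0.52 (adjusted p = 0.256) with CHYL-sized particles. The VLDL-sized call was lost without control replicate 1 (adjusted p = 0.1), control replicate 2 (0.0958), VLDL-sized replicate 1 (0.0772) or VLDL-sized replicate 3 (0.0831), and when only the groups compared were fitted (0.0543). With the libraries numbered 3 left out the values were 0.91 (adjusted p = 0.0306) and 0.72 (adjusted p = 0.1). *Elovl2*, an elongase that acts on polyunsaturated acids after *Elovl5*, and *Tecrl* had no counts in any library.

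Fatty acid desaturases receive their electrons from cytochrome b5 and its reductases. *Cyb5a*, the microsomal cytochrome b5, rose in the same cells in which *Fads1* and *Fads2* fell. Its level was 101, 106 and 102 cpm in control libraries, 386, 391 and 383 cpm with VLDL-sized and 377, 388 and 377 cpm with CHYL-sized particles. The treated libraries lay far above the control libraries, the 2 treated groups overlapped, and the spread within each group was small. In log2 units *Cyb5a* changed by 1.90 (SE 0.042, adjusted p = 1.42e-09 by limma) and 1.88 (SE 0.042, adjusted p = 1.6e-09). *Cyb5b*, the outer mitochondrial form, fell from 273 cpm to 219 and 218 cpm (log2 fold changes -0.32 and -0.33). Of the 6 tested genes of this list, 3 rose and 1 fell with VLDL-sized particles, and 1 rose and 1 fell with CHYL-sized particles. The other genes that rose with VLDL-sized particles were the reductases *Cyb5r4* (0.15, adjusted p = 0.0179 by limma) and *Cyb5r3* (0.15, adjusted p = 0.0362). Both lost the call with library size alone (adjusted p = 0.306 and 0.378) and without control replicate 1 (0.0744 and 0.0783) or control replicate 2 (0.0519 and 0.108). *Cyb5r3* also lost it without control replicate 3 (0.057) or VLDL-sized replicate 1 (0.129) and when only the groups compared were fitted (0.0659), and *Cyb5r4* when no filter was used (0.0552). The CHYL-sized value of *Cyb5r4*, 0.11 (adjusted p = 0.081), passed with a batch term for the libraries numbered 3 (0.0295). Without those libraries the values were 1.90 and 1.88 for *Cyb5a*, -0.33 and -0.32 for *Cyb5b*, 0.16 and 0.15 for *Cyb5r4* (adjusted p = 0.014 and 0.0315) and 0.18 and 0.092 for *Cyb5r3* (adjusted p = 0.0134 and 0.208).

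Among regulators of lipid genes, *Insig1* and both SREBP genes fell. *Insig1*, which retains the SREBP complex in the endoplasmic reticulum and is itself an SREBP target, was at 144, 153 and 160.1 cpm in control libraries, 35.3, 35.6 and 32.8 cpm with VLDL-sized and 39.5, 37.4 and 37.1 cpm with CHYL-sized particles. Its log2 fold changes were -2.14 and -2.00. The related *Insig2*, named after its values were seen, rose from 37.9 cpm to 45.6 and 45.4 cpm (0.26 and 0.26, adjusted p = 0.0108 and 0.0163 by limma). Both calls were lost with library size alone (0.104 and 0.108), and the CHYL-sized call without CHYL-sized replicate 1 (0.0609) or 2 (0.0569). *Srebf1*, which encodes the SREBP of fatty acid synthesis, went from 158, 160.4 and 148 cpm to 64.3, 61.7 and 55.1 cpm and to 68.8, 71.3 and 64.0 cpm (log2 fold changes -1.37 and -1.19). *Mid1ip1*, a partner of acetyl-CoA carboxylase, fell by 1.38 and 1.20 on the log2 scale. *Srebf2*, the SREBP of sterol synthesis, fell by 0.69 and 0.61. *Ppard*, a nuclear receptor for fatty acids, rose from 11.7 cpm to 23.3 and 18.1 cpm (0.98 and 0.63). *Nr1h3*, which encodes the oxysterol receptor LXR-alpha, was low at 2.64 to 3.83 cpm and did not pass the test, with log2 fold changes of -0.28 and -0.19 (adjusted p = 0.202 and 0.405 by limma). With single libraries left out its values ranged from -0.339 to -0.183 with VLDL-sized and from -0.322 to -0.086 with CHYL-sized particles. Of the 14 tested genes of this list, 4 rose and 5 fell with VLDL-sized particles, and 3 rose and 5 fell with CHYL-sized particles. The median log2 fold changes were -0.21 and -0.15. When the libraries numbered 3 were left out, the values were -2.06 and -1.95 for *Insig1*, 0.26 and 0.24 for *Insig2*, -1.34 and -1.18 for *Srebf1*, -1.38 and -1.17 for *Mid1ip1*, -0.71 and -0.62 for *Srebf2*, 0.88 and 0.61 for *Ppard* and -0.17 and -0.16 for *Nr1h3*.

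Genes that activate fatty acids and exchange them in phospholipids fell or did not pass the test. Of 12 tested, 6 fell with VLDL-sized and 4 with CHYL-sized particles, and none rose by limma, with medians of -0.20 and -0.14. At an unadjusted p under 0.05 limma had 7 and 6 of the 12 in either direction, edgeR called 6 and 4, and DESeq2 called 7 and 4. Among the 7 was *Acsl1*, which was higher with VLDL-sized particles and narrowly missed the threshold (0.26, adjusted p = 0.0529 by limma). With CHYL-sized particles *Acsl1* had 0.20 (adjusted p = 0.147 by limma). *Acsl3*, an acyl-CoA synthetase of the endoplasmic reticulum and lipid droplets, went from 144, 143 and 125 cpm in control libraries to 55.5, 60.3 and 58.8 cpm and to 60.3, 63.2 and 58.5 cpm (log2 fold changes -1.24 and -1.18). The lysophosphatidylcholine acyltransferase *Lpcat1* had -0.73 and -0.47, and the related *Lpcat4* -0.56 and -0.55. *Mboat1*, a lysophospholipid acyltransferase, fell with VLDL-sized particles (-0.39, adjusted p = 0.0196 by limma) and had -0.25 with CHYL-sized particles (adjusted p = 0.118). Its VLDL-sized call was lost without control replicate 3 (adjusted p = 0.0529), VLDL-sized replicate 1 (0.0788) or VLDL-sized replicate 2 (0.0574), and its CHYL-sized value passed with library size alone (0.03) and with a batch term for the libraries numbered 3 (0.00184). *Lpcat3*, which favours polyunsaturated acyl groups, was chosen after its values were seen, and fell by 0.37 and 0.38. Leaving out the libraries numbered 3 gave -1.31 and -1.22 for *Acsl3*, -0.73 and -0.41 for *Lpcat1*, -0.50 and -0.58 for *Lpcat4*, -0.35 and -0.225 for *Mboat1* (adjusted p = 0.0012 and 0.0228) and -0.37 and -0.41 for *Lpcat3*.

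Peroxisomes shorten very-long-chain acids and carry out the last step in the synthesis of docosahexaenoic acid. Of 13 tested genes of this pathway, 2 rose and 3 fell with each kind of particle, and the medians were -0.0080 and 0.031. *Abcd2*, a peroxisomal transporter that imports very-long-chain acyl-CoA, had log2 fold changes of -1.20 and -0.70. It was at 5.56 cpm in control, and its CHYL-sized call was lost without control replicate 1 (adjusted p = 0.0695 by limma), control replicate 2 (0.054) or CHYL-sized replicate 3 (0.0687). *Acox3*, an oxidase of branched-chain acids, fell with both kinds of particle, with -0.31 and -0.23. In replicates 1 and 2 alone the values were -1.14 and -0.64 for *Abcd2* and -0.30 and -0.235 for *Acox3*.

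**Figure D4:**
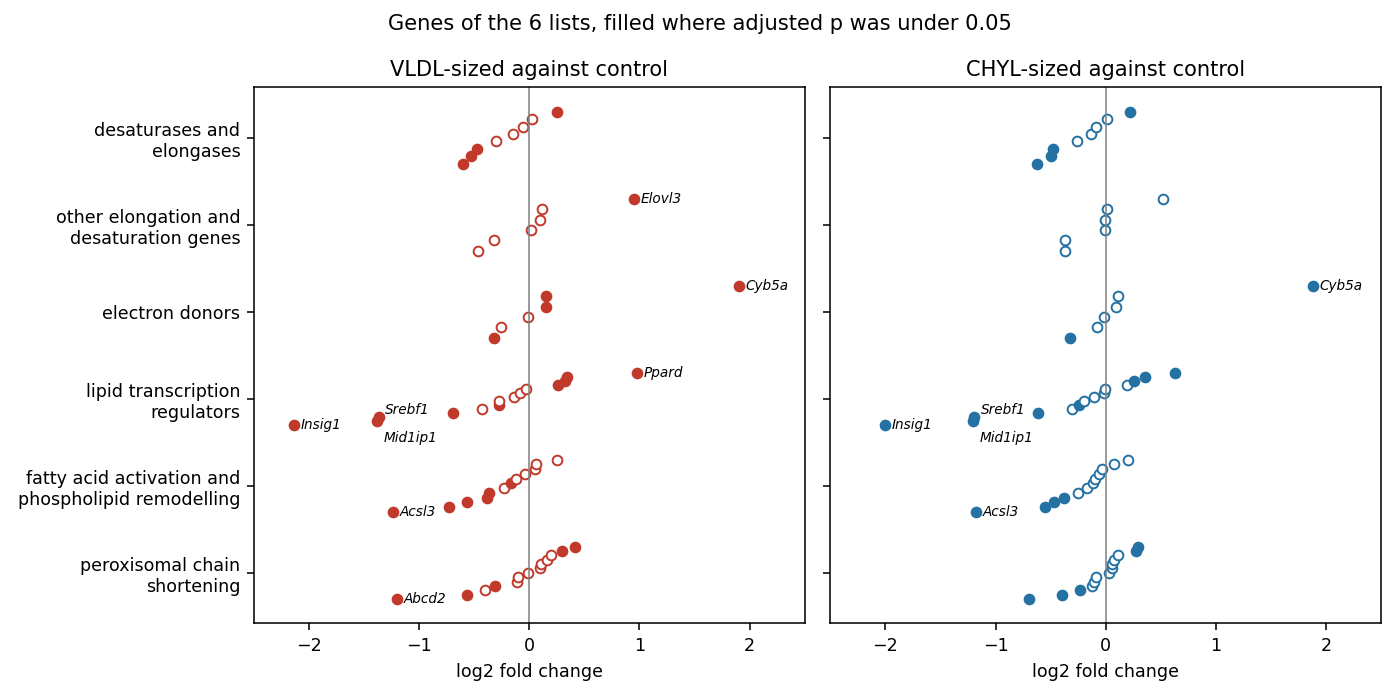
Log2 fold change (horizontal axis) of each tested gene of the 6 lists, with VLDL-sized (left) and CHYL-sized particles (right) against control; filled points have an adjusted p under 0.05 by limma. *Cyb5a* at 1.90 and 1.88 and *Insig1* at -2.14 and -2.00 are the extremes, and the 8 tested members, in the top row, lie between -0.63 and 0.25.

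The genes whose profile was most like that of *Fads1* and *Fads2* were found by the root mean square difference of mean-centred log2 cpm over the 9 libraries, among 8668 tested genes with at least 10 cpm on average. Nearest to *Fads1* were *Abcb8* (0.044), *Hirip3* (0.046), *Cdca5* (0.048), *Scarb1* (0.049) and *Kif18b* (0.050). Nearest to *Fads2* were *Fdps*, the farnesyl diphosphate synthase (0.026), *Pradc1* (0.060), *Abcb8* (0.063), *Fads1* (0.073) and *Mybl2* (0.077). *Fads1* thus stood in place 4 from *Fads2*, but *Fads2* stood in place 22 from *Fads1*. All these values come from the same 9 libraries, in which the treated and control groups and the libraries numbered 3 differ, and they describe likeness in these libraries only.

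**Figure D5:**
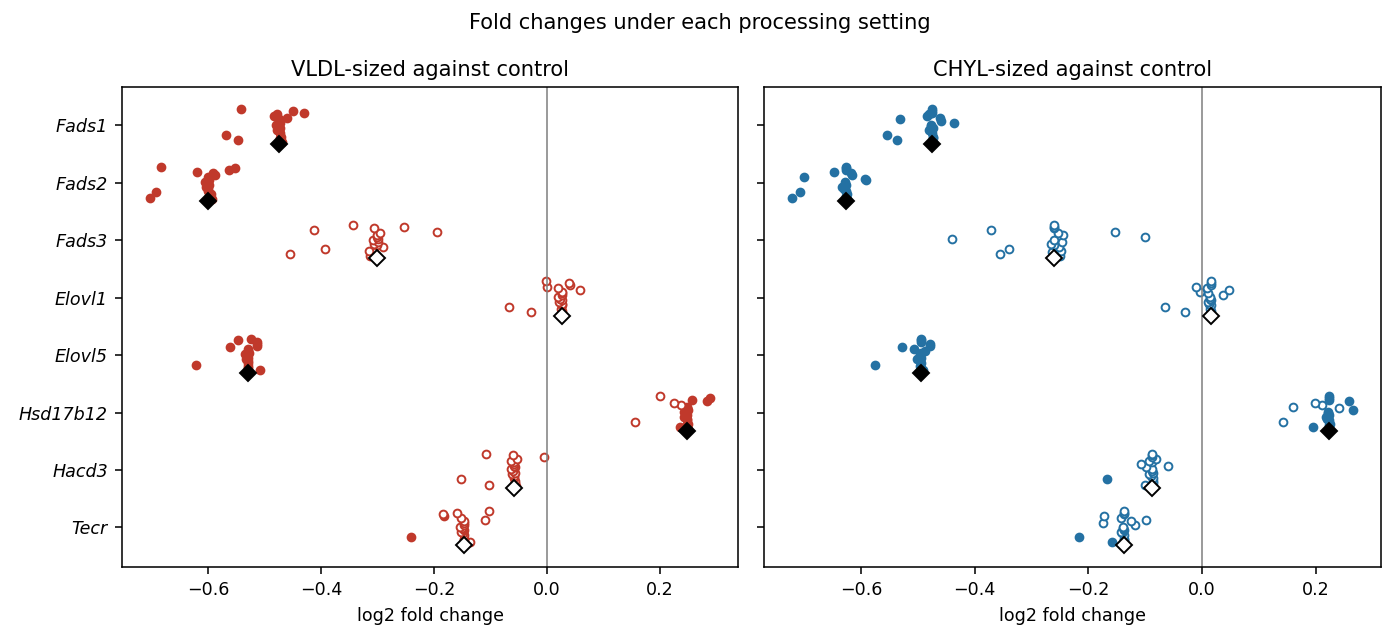
Log2 fold change (horizontal axis) of the 8 tested members under the reported setting (black diamonds) and each processing alternative (circles), with VLDL-sized (left) and CHYL-sized particles (right) against control; filled symbols have an adjusted p under 0.05. *Fads1*, *Fads2* and *Elovl5* stay filled under all 20 alternatives, *Hsd17b12* and *Tecr* are filled under some of them, and *Elovl1* spans 0.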

How the data were processed

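The authors processed the reads with Salmon 0.14.1 (per the submitters' processing notes) against GENCODE transcripts of GRCm38.p6, summarized them to genes with tximport and deposited an estimated count per gene and library. According to the methods, counts were scaled for the length of transcripts and for library size. Among deposited values over 10, however, 58.3% were exactly whole as written (tolerance 0) and 75.1% were within 0.01 of a whole number, and the table was taken as unscaled. Symbols were matched for 54346 of 54432 identifiers.

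A gene needed over 10 counts in 3 or more of the 9 libraries, which 12637 genes had. These were normalized by TMM (edgeR 4.0.16), given voom weights and fitted with limma 3.58.1 in R 4.3.3, in 1 model of the 3 groups with Benjamini-Hochberg adjustment over all genes tested. Levels are TMM-scaled cpm. DESeq2 1.42.0 and edgeR's quasi-likelihood test were alternatives, and used estimated counts rounded to integers. The steps were tested on simulated data. Coordinates and exon lengths are from the GENCODE release of GRCm38 before that of the authors. Library totals of 22393893 to 22856792 counts leave genes with few counts imprecise.

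The members and lists were chosen with earlier results of these data known. All members were named. From each other list up to 4 genes were named, those with the largest absolute log2 fold change with VLDL-sized particles among genes called, plus *Srebf1*, *Srebf2*, *Insig1* and *Nr1h3*, and the 5 genes nearest in profile to *Fads1* and to *Fads2*. Some genes of these lists are not reported here. Protein features were not analysed here.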

Additional observations from a re-analysis of the deposited data

How the results depend on the processing

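The processing was varied in 20 ways, 9 of which left out a single library. Of 318 fold changes of the tested members against control, 292 kept their direction and side of the threshold, 9 lost the call (all of *Hsd17b12*), 9 gained it (8 of *Tecr* and 1 of *Hacd3*) and 8 changed sign (all of *Elovl1*). *Fads3* could not be fitted under the stricter filter. With 3 libraries per group, those numbered 3 apart from the others, log2 differences of the size seen for *Tecr* were near the threshold, and *Fads3*, with 29 to 54 counts per library, had the widest intervals of the tested members.

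The members called lay between 3 and 5 with VLDL-sized and between 3 and 4 with CHYL-sized particles when each library was left out, and at 0 between the particles. *Elovl1* against control changed sign with library size only (-0.0676 and -0.0644) and without all libraries numbered 3 (-0.029 and -0.0301), and ranged from -0.00265 to 0.0584 and from -0.0109 to 0.0483 when single libraries were left out. Between the particles, differences near 0 changed sign. *Fads1* had -0.0123 without the libraries numbered 3, -0.0128 with library size only, -0.000753 with the stricter filter and -0.00441 with upper-quartile scaling, *Elovl1* had -0.00322 with library size only, and without the libraries numbered 3 *Hacd3* had -0.00156 and *Tecr* 0.0215. Leaving out single libraries gave -0.0683 to 0.0564 for *Fads1*, -0.057 to 0.101 for *Fads2*, -0.201 to 0.138 for *Fads3*, -0.0181 to 0.0293 for *Elovl1*, -0.0237 to 0.0884 for *Hsd17b12*, -0.0216 to 0.0811 for *Hacd3* and -0.0462 to 0.0346 for *Tecr*. The causes were not tested.

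With a replicate block, 5 members were called with each kind of particle, *Tecr* being added (adjusted p = 0.0183 and 0.0312 by limma), and 0 between the particles. The CHYL-sized values of *Mboat1* (adjusted p = 0.00371) and *Cyb5r4* (0.0428) also passed. Over the whole table the block moved the count of genes called from 4500 to 6058 with VLDL-sized and from 3249 to 4949 with CHYL-sized particles, and from 0 to 147 between the particles. Deviations of same-numbered libraries from their group means correlated across genes by 0.089, 0.099 and 0.22 between VLDL-sized and control libraries and by 0.098, 0.024 and 0.27 between CHYL-sized and control libraries for numbers 1, 2 and 3. Between VLDL-sized and control libraries every library correlated best with its own number, but CHYL-sized replicate 2 correlated more with control replicate 1 (0.13). Not every value exceeded 0.1, so the numbers were not taken to pair the libraries. A batch term for replicate 3 called 6212 and 5147 genes against control and 239 between the particles, and the removal of these libraries called 5386, 4150 and 232.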
